A study of Homo sapiens with 6 samples.

Results

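The unannotated intergenic loci were genes that the long-read annotator TALON added to the catalogue because their reads overlapped no annotated gene. Every transcript model whose gene was of the novelty class Intergenic in the deposited count table was taken, and counts were summed per gene. This gave 158 loci with 267 transcript models, out of 10072 genes and 21472 models in the table. The other unannotated genes of the table were 1746 loci that TALON placed antisense to another gene, with 2933 models. The remaining 8168 genes, with 18272 models, were annotated.

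Long cDNA reads had been counted in 6 libraries of the human lung carcinoma line Calu-6, to see which transcripts changed when the Delta 2–4 splice variant of telomerase reverse transcriptase (TERT) was targeted. The cells were of genotype WT in the labels and had received 10 nM of siRNA for 48 h. The control group had a non-silencing siRNA (siControl, 3 libraries), and the other group had an siRNA against the junction of exon 1 and exon 5 of TERT (siDelta2-4, 3 libraries). The effect of the siRNA on TERT itself was not analysed here, because the counts listed no row for that gene. The libraries of polyA RNA were barcoded, pooled and sequenced on a single flow cell for 72 h. The column names of the count table also carried the word Empty, which the study used for cells with an empty Flag-V5 vector. The study called the libraries of a group biological replicates, while the labels did not say whether they came from separate cultures, so the p-values measure the spread between these samples, part of which may be technical.

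Libraries are named within each group by their total count, since the columns could be matched to groups but not to single samples. The siControl libraries held 1106413, 1077555 and 1037468 counts (highest, middle and lowest total), and the siDelta2-4 libraries held 1309241, 1183889 and 1070009. Of the markers used to check the cell type, the epithelial keratins KRT8 and KRT18 lay at 111 to 139 and 154 to 188 CPM (counts per 1000000 of the scaled library total), and the mesenchymal filament gene VIM at 125 to 167. Other epithelial genes were low, with KRT7 at 2.92 to 8.44 CPM, EPCAM at 0.958 to 2.92 and KRT19 at 0 to 0.813, while CDH1 and the 5 lung lineage markers had no row in the table. Of 8 markers of other cell types, CD14 alone had counts, at no more than 0.975 CPM. The siControl library with the lowest total stood apart in what follows. Without it the number of intergenic loci called changed rose from 8 to 24, whereas leaving out any other library lowered it to 3 or 4. Calls over all genes in the same refits are not given here, so this is not read as a trait of the intergenic loci.

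A human cell transcribes much more of its genome than the annotated genes. Transcripts from between genes are often unstable or rare, but some are capped, spliced and polyadenylated like messenger RNAs, and such loci are the usual source of newly annotated long non-coding RNAs. Reads that span whole molecules can place the exons of such a transcript in 1 model without assembly.

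Most intergenic loci were spliced. Their models had a median of 5 exons, as did those of antisense loci and protein-coding genes, against 3 for annotated long non-coding RNAs (lncRNAs) and 1 for pseudogenes. Single-exon models numbered 22 of 267 (8.24%), against 5.83% of antisense models, 17.7% of lncRNA models and 84.3% of pseudogene models. At the level of loci, 140 of 158 had at least 1 model with more than 1 exon, and 18 had single-exon models alone. Exon numbers of 4 to 6 were the most frequent, with 52, 49 and 51 models, and the longest chain had 15 exons. These classes passed different filters before deposit, since unannotated models needed a minimum count and annotated models did not, so the differences between classes are descriptions without a test.

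**Figure D1:**
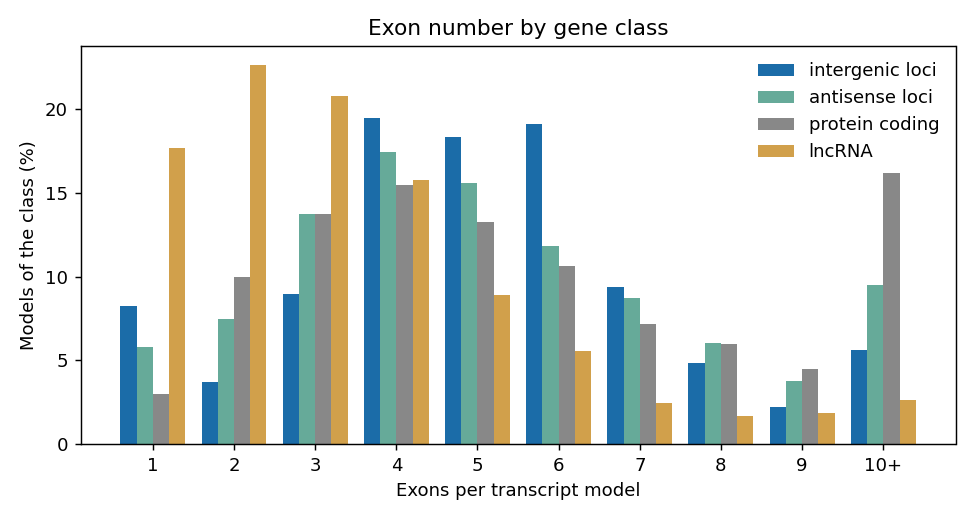
The percentage of transcript models (vertical axis) is plotted against their number of exons (horizontal axis, with 10 or more in the last group) for intergenic loci, antisense loci, protein-coding genes and lncRNAs. Intergenic models peaked at 4 to 6 exons, lncRNA models at 2, and 16.2% of protein-coding models but 5.62% of intergenic models had 10 exons or more.

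In length the intergenic models were close to antisense models and shorter than protein-coding ones. The median was 865 bases (interquartile range 675 to 1130.5, longest 2533), against 914 for antisense models, 921.5 for lncRNA models and 1228 for protein-coding models. Weighted by counts, the mean length of an intergenic model was 807 bases, which was below the 870 bases of antisense models and the 1231 bases of protein-coding models. The model of TALONG000063204, with 114 counts, was listed with a length of 1 base, which cannot be the length of a transcript with those reads.

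Most loci had a single model. In all 114 of 158 loci (72.2%) did, close to the 71.5% of antisense loci and the 71.4% of lncRNA genes and above the 47.7% of protein-coding genes. The other 44 loci held 153 models, and the largest number, 10 models, was reached by TALONG000065680 and TALONG000064435. Loci with higher counts had more models, with a Spearman rho of 0.66 across the 158 loci, which were counted in the same libraries and passed the same minimum count per model. In loci with more than 1 model, the leading model held a median of 73.5% of the counts, and over 90% in 12 of 44. TALONG000065680 had the least dominant leading model, a 7-exon transcript of 1732 bases with 29.4% of the counts of its locus.

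By TALON's class of the transcript, most counts lay on models listed as incomplete splice matches, which numbered 82 and held 59.3% of the intergenic counts. Single-exon models were among them, the largest being that of TALONG000064596 with 12538 counts. A subtype was given for the rest but 1, with 34 models listed as a prefix of another chain, 32 as a suffix and 7 as both. Models of the class Intergenic numbered 78 and held 21.2%. Models that combine known splice sites in a new way (62, with 8.74% of counts) or use a splice site outside the catalogue (45, with 10.7%) made up the rest. Of the 158 loci, 80 had no model of the class Intergenic in the table. Whether their founding models had too few counts to be kept was not tested.

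Counts were concentrated in a few loci. The 158 loci had a median of 124.5 counts over the 6 libraries, with a range from 27 to 17833. Of them 65 had under 100 counts and 23 had over 1000. The 10 largest loci held 63.7% of all intergenic counts, and the largest alone held 13.9%. After the 10th locus, at 4943 counts, the next had 2315.

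**Figure D2:**
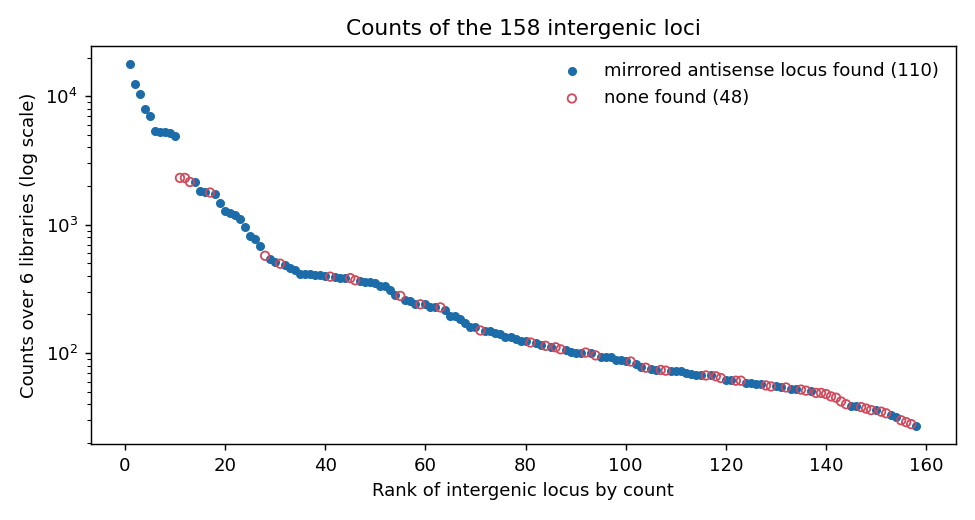
Each point is 1 intergenic locus, ranked by count (horizontal axis), with its count summed over 6 libraries on a log scale (vertical axis). The 10 largest loci, from 17833 to 4943 counts, lie above a gap and all have a mirrored antisense locus (filled), while the 48 loci without one (open) lie at 2315 counts or lower.

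The largest loci were short and, with 1 exception among the 8 largest, multi-exon. TALONG000064422 was the largest and had 6 models of 4 or 5 exons, all between 454 and 496 bases long. Its siControl libraries had 3106, 2875 and 2618 counts and its siDelta2-4 libraries 3365, 2926 and 2943 (here and below in the order highest, middle and lowest total), or 2764 ± 260 and 2572 ± 189 CPM (mean ± SD, n = 3 each). The groups overlapped, and the log2 fold change of siDelta2-4 over siControl was -0.10 ± 0.08 (SE, edgeR adjusted p = 0.474).

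TALONG000064643, with 7 models of 4 or 5 exons, had 1765, 1721 and 1631 counts in siControl against 1990, 1770 and 1530 in siDelta2-4. Scaled to the library it lay at 1644 ± 79.5 CPM in siControl and 1466 ± 53.0 CPM in siDelta2-4. Its CPM did not overlap between the groups, but its log2 fold change of -0.17 ± 0.08 did not pass the test (edgeR adjusted p = 0.190). Next came TALONG000065414 (7933 counts, 6 models of 5 to 7 exons) and TALONG000064435 (7063 counts, 10 models of 5 to 8 exons). TALONG000063150, TALONG000063835 and TALONG000063385 had 5328, 5252 and 5238 counts, and in each a 6-exon model of 764, 539 or 668 bases held over 86% of the counts. Differences of these 5 loci lay between -0.14 and -0.05 on the log2 scale, and none passed the test (edgeR adjusted p from 0.315 to 0.790). The second largest locus, TALONG000064596, differed from the others in having only a single-exon model, of 486 bases, and is described with the called loci.

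All 10 largest loci had a negative log2 fold change, with a median of -0.12. How many were negative depended on the scaling. All 10 were with DESeq2 size factors and with TMM from annotated genes alone. With library totals alone 8 of 10 were negative (median -0.05). After a trend on transcript length was removed from each library 6 of 10 were (median -0.06).

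As a whole the intergenic loci took just under 2% of each library, with no difference between groups beyond the spread. Their share of the counts was 1.87%, 1.92% and 1.93% in siControl and 1.88%, 1.90% and 1.86% in siDelta2-4, or 1.90% ± 0.0323 and 1.88% ± 0.0179 (mean ± SD, n = 3 each). The groups overlapped, and the difference of -0.0237 percentage points was within the spread (exact two-sided permutation p = 0.3, where 3 libraries against 3 allow no p below 0.1). Without the 3 largest loci the difference was +0.0207 percentage points (exact permutation p = 0.7, n = 3 each). In bulk RNA, fewer cells with a transcript and less of it in each cell cannot be told apart.

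With all 6 libraries, the make-up of the intergenic counts did not differ beyond their spread either. Models with more than 1 exon held 87.4% ± 1.03 of the intergenic counts in siControl and 88.7% ± 0.338 in siDelta2-4 (exact permutation p = 0.2, n = 3 each). This difference of 1.37 percentage points was 1.90 without the siControl library of the lowest total (exact permutation p = 0.1, n = 2 and 3, the lowest possible). Without the 3 largest loci it was 0.203 (exact permutation p = 0.6, n = 3 each). The count-weighted mean length was 797 ± 20.0 bases in siControl and 815 ± 16.3 in siDelta2-4 (exact permutation p = 0.3, n = 3 each). A count was present for 158, 158 and 157 loci in the siControl libraries and for all 158 in each siDelta2-4 library, and these numbers were the same with every library drawn down to the smallest total. The deposited filter bears on this comparison, because every intergenic model had at least 5 counts in each siDelta2-4 library, while 42 of 267 had fewer than 5 in a siControl library. A locus with reads in siControl alone could therefore not be seen.

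Locus by locus, few intergenic loci changed. Of the 158 loci, 124 had enough counts for the test, and they held 98.8% of the intergenic counts. The 34 others had at most 61 counts each. Calls of change needed an adjusted p below 0.1 by the quasi-likelihood method of edgeR, fitted and adjusted over all 3888 genes tested. By this rule 8 loci were called (6.45% of those tested), 4 higher and 4 lower in siDelta2-4, while the background over all genes was 13.0% (7.00% higher and 5.97% lower). With library totals as the only scaling, 6 were called, 5 higher and 1 lower. The DESeq2 test called 2 loci, TALONG000065680 and TALONG000064596, and with no filter on low counts edgeR called 5. Shares over all genes are not given for these other fits or for the alternatives below, so the 13.0% applies to the first fit alone.

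Less strict readings gave the same order. At an unadjusted p under 0.05 there were 21 loci (16.9%), against 23.1% of all genes tested. The groups were fully separate in CPM for 21 loci (16.9%), against 26.0% of all genes. The lower share than in all genes was not tested, since the loci were chosen with results of these data known. Log2 fold changes over the 124 loci ran from -0.82 to 1.11 with a median of -0.05, against a median of 0.03 over all genes. In 107 of 124 the absolute value was under 0.5. By comparison, 186 of 1397 antisense loci (13.3%) and 248 of 1989 protein-coding genes (12.5%) were called.

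**Figure D3:**
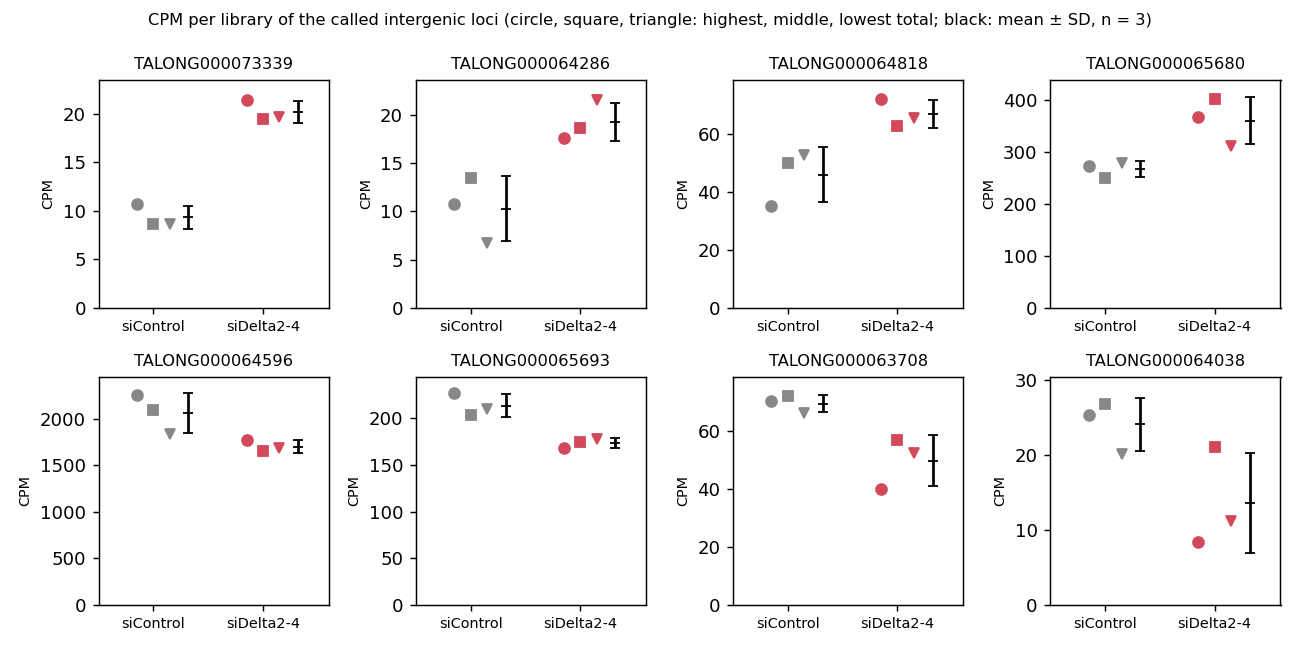
CPM (vertical axes, from 0) is shown in each library for the 8 called intergenic loci, with siControl in grey and siDelta2-4 in red. The groups are separate in 7 panels and overlap in that of TALONG000064038, and the means differ by more than 2-fold only for TALONG000073339.

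The locus with the largest rise was TALONG000073339, a single 2-exon model of 398 bases in the class Intergenic. It had 11, 9 and 9 counts in siControl against 28, 24 and 21 in siDelta2-4, or 9.33 ± 1.21 and 20.2 ± 1.10 CPM (mean ± SD, n = 3 each). Each siDelta2-4 library lay above each siControl library, and the log2 fold change was 1.11 ± 0.31 (SE, edgeR adjusted p = 0.0238). Its total of 102 counts placed it 89th of 158 loci.

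TALONG000065680 rose less but on far more counts, and it was 1 of the loci with 10 models. Its counts were 281, 260 and 292 in siControl against 478, 495 and 333 in siDelta2-4, or 268 ± 16.1 and 360 ± 45.5 CPM. Groups did not overlap, and the log2 fold change was 0.43 ± 0.11 (edgeR adjusted p = 0.0110, the lowest among intergenic loci).

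The other 2 loci called higher were single models. TALONG000064286 (5 exons, 982 bases) had 11, 14 and 7 counts in siControl against 23 in each siDelta2-4 library, with a log2 fold change of 0.89 ± 0.32 (edgeR adjusted p = 0.0783). TALONG000064818 (3 exons, 942 bases) had 36, 52 and 55 counts in siControl against 94, 77 and 70 in siDelta2-4, with a log2 fold change of 0.54 ± 0.18 (edgeR adjusted p = 0.0573). In CPM all siDelta2-4 libraries of both loci exceeded all siControl libraries.

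Among the loci called lower, the single-exon locus TALONG000064596 had by far the most counts. Counts of 2312, 2182 and 1913 in the siControl libraries stood against 2310, 2027 and 1794 in siDelta2-4, which after scaling to the library were 2060 ± 213 and 1700 ± 65.1 CPM. The groups did not overlap in CPM, and the log2 fold change was -0.28 ± 0.08 (edgeR adjusted p = 0.0348). This was a fall of small size measured on 12538 counts.

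TALONG000065693, with 6 models of 3 to 7 exons, had 233, 212 and 219 counts in siControl against 219, 215 and 190 in siDelta2-4, with a log2 fold change of -0.30 ± 0.11 (edgeR adjusted p = 0.0841). TALONG000063708 had a 4-exon model of 2517 bases and a single-exon model of 2083 bases, and its counts were 72, 75 and 69 in siControl against 52, 70 and 56 in siDelta2-4 (log2 fold change -0.49 ± 0.17, edgeR adjusted p = 0.0751). Both were separate between the groups in CPM.

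TALONG000064038 (4 exons, 1741 bases) had the largest fall, from 26, 28 and 21 counts in siControl to 11, 26 and 12 in siDelta2-4 (log2 fold change -0.82 ± 0.31, edgeR adjusted p = 0.0957). The siDelta2-4 library with the middle total lay within the siControl range, so this was the called locus whose groups overlapped.

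The calls differed in how far they rested on single libraries. TALONG000065680 lost its call only without the siDelta2-4 library of the middle total (log2 fold change 0.34, edgeR adjusted p = 0.121), and TALONG000073339 only without the siControl library of the middle total (1.06, adjusted p = 0.104). TALONG000064596 lost it without any of 4 libraries, both siControl libraries of higher total and the siDelta2-4 libraries of middle and lowest total (adjusted p from 0.130 to 0.155). TALONG000064818 and TALONG000065693 kept the call only without the siControl library of the lowest total (adjusted p 0.0119 and 0.0236), and TALONG000064286 only without that of the middle total (0.0987). TALONG000064038 kept it without the siControl library of the lowest total or without the siDelta2-4 library of the middle total, where the log2 fold changes were -0.96 and -1.30. TALONG000063708 kept its call only without the siControl library of the lowest total (adjusted p = 0.0211).

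The 2 loci with the longest exon chains had counts that varied within siControl. TALONG000065710 (15 exons, 1854 bases) had 9, 12 and 27 counts in siControl against 37, 37 and 20 in siDelta2-4, with a log2 fold change of 0.75 ± 0.31 that did not pass the test (edgeR adjusted p = 0.139). TALONG000065188 (14 exons, 1910 bases) had 5, 9 and 22 counts in siControl against 19, 20 and 12 in siDelta2-4 (0.29, edgeR adjusted p = 0.701). In both, the siControl library with the lowest total held more counts than the other siControl libraries together. Without that library their log2 fold changes were 1.33 and 1.03, and both passed the test (edgeR adjusted p = 0.00245 and 0.0800).

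The third locus by exons, TALONG000065238 (13 exons, 1837 bases), was even within siControl, with 39, 48 and 42 counts against 51, 56 and 43 in siDelta2-4, and had a log2 fold change of 0.01 (edgeR adjusted p = 0.990). The longest model of all, the 7-exon model of 2533 bases of TALONG000062705, had 5, 3 and 1 counts in siControl against 8, 9 and 6 in siDelta2-4 and was too low for the test. TALONG000064670, with an 8-exon model of 2045 bases, had a log2 fold change of 0.19 (edgeR adjusted p = 0.581). With all 6 libraries, none of the 3 loci with the most exons passed the test.

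Log2 fold changes were related to transcript length. Spearman's rho was 0.326 across 3888 genes and 0.137 across the 124 loci, in both cases over points that share the same libraries. The difference between these values was not tested, and the loci span a narrower range of lengths. The mean length of counted models was 1011, 1013 and 1042 bases in the siControl libraries and 1045, 1063 and 1049 bases in the siDelta2-4 libraries. With a length trend removed from each library, 12 intergenic loci were called, 7 of them among the 8 above, and TALONG000065693 was no longer called (log2 fold change -0.21, edgeR adjusted p = 0.214).

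Single models within loci gave a few further calls. Of 197 intergenic models tested, 11 were called (5.58%, against a background of 6.91% over all models), 7 higher and 4 lower. Of the called models, 3 belonged to TALONG000065680, all higher. Its 6-exon model TALONT000277655 of 1877 bases had 75, 67 and 64 counts in siControl against 140, 131 and 99 in siDelta2-4 (log2 fold change 0.66, edgeR adjusted p = 0.00870). Its 4-exon model TALONT000277677 rose by 1.03 (adjusted p = 0.0678) and its leading 7-exon model TALONT000277635 by 0.45 (adjusted p = 0.0920). At an unadjusted p under 0.05 there were 26 intergenic models, where the background was 17.9%.

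Other models were called in loci that were not called as a whole. In TALONG000064643 the longest model, TALONT000267602 (5 exons, 1361 bases), had 71, 65 and 79 counts in siControl against 128, 122 and 110 in siDelta2-4 (log2 fold change 0.56, edgeR adjusted p = 0.0241). Its share of the locus was 4.21% ± 0.559 in siControl and 6.84% ± 0.382 in siDelta2-4, with no overlap, while the leading 663-base model held 90.7% ± 0.991 and 87.6% ± 0.967 of the locus. This locus was the one that passed the test of model usage, out of 35 tested (edgeR adjusted p = 0.0676, against a background of 0.618%, or 7 of 1132 genes). At an unadjusted p under 0.05 there were 3 such loci (background 9.63%). The call was lost without any single library other than the siControl library of the lowest total (adjusted p from 0.141 to 0.409), and leaving out that library gave an adjusted p of 0.00340.

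In TALONG000065414 the 5-exon model TALONT000275151 of 1628 bases fell, from 19, 33 and 11 counts to 12, 10 and 10 (log2 fold change -1.15, edgeR adjusted p = 0.0647). In TALONG000065410 the 5-exon model TALONT000274573 of 1308 bases fell further, from 58, 36 and 20 counts in siControl to 14, 14 and 18 in siDelta2-4 (-1.48, edgeR adjusted p = 0.00606). The siControl library with the lowest total again lay nearest to the siDelta2-4 libraries.

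In TALONG000065410 that library also differed from the other siControl libraries in model usage. Its leading 8-exon model held 47.0% and 48.7% of the locus in the siControl libraries of highest and middle total and 74.5% in that of the lowest total, against 70.4%, 71.0% and 68.4% in siDelta2-4. The 8-exon model of the same length in TALONG000065409 showed no such shift, at 83.6%, 78.3% and 83.3% of its locus in siControl and 79.8%, 84.4% and 84.0% in siDelta2-4. With all libraries the usage test of TALONG000065410 gave an edgeR adjusted p of 0.632, and without that siControl library 5.95e-09. The locus was chosen after its values were seen.

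A pattern that the choice of loci did not use was that most of them came in pairs with an antisense locus of the same structure. TALON numbers its new genes in series, and the search, chosen after seeing the data, looked within 15 gene numbers of each intergenic locus for an antisense locus sharing at least 1 model of equal exon number and equal length in bases. Such a mirrored locus was found for 110 of 158 loci, which held 89.2% of the intergenic counts, and for 94 of them it had the very next number. In all 146 models were matched. All 10 of the largest loci and 16 of the 20 largest had one.

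The members of a pair had nearly the same counts. The ratio of antisense to intergenic count had a median of 0.993 (interquartile range 0.892 to 1.08), and 83 of 110 ratios lay between 0.8 and 1.25. TALONG000064422 and TALONG000064423 had 17833 and 16964 counts and shared 5 models. TALONG000064643 and TALONG000064644 had 10407 and 10439, and TALONG000065414 and TALONG000065415 had 7933 and 7853. The 15-exon locus TALONG000065710, with 142 counts, was paired with a 15-exon antisense model of the same 1854 bases and 141 counts. Ratios farthest from 1 were 0.359 for TALONG000065693 and TALONG000065694, where 6 models faced 1, and 2.34 for TALONG000065741 and TALONG000065742.

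**Figure D4:**
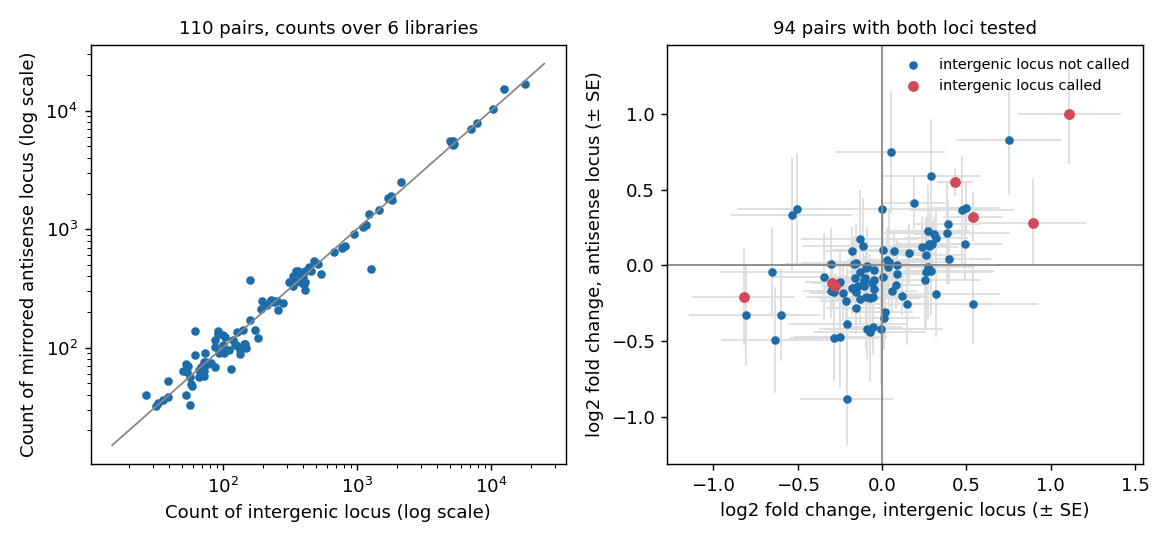
On the left, the count of each intergenic locus is plotted against that of its mirrored antisense locus over 6 libraries for 110 pairs (log scales, line of equality in grey). On the right, log2 fold changes of siDelta2-4 over siControl with SE bars are plotted for the 94 pairs with both loci tested, 71 of which lie in the quadrants of equal sign, with called intergenic loci in red.

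The match in length was exact rather than approximate. At a length difference of 0 bases, 183 of 267 intergenic models had an antisense model of the same exon number anywhere in the table. At each of the 20 differences from 1 to 10 bases on either side, 60 to 93 had one (median 73.5). When a count ratio between 0.8 and 1.25 was also required, the numbers were 112 at 0 bases and 8 to 21 elsewhere. Against models of annotated genes there was no such peak, with 177 matches at 0 bases and 157 to 182 elsewhere. Matches to these more numerous models were frequent at every difference, which left less room for a peak. With a like count also required, the numbers were 25 at 0 bases and 18 to 30 elsewhere.

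**Figure D5:**
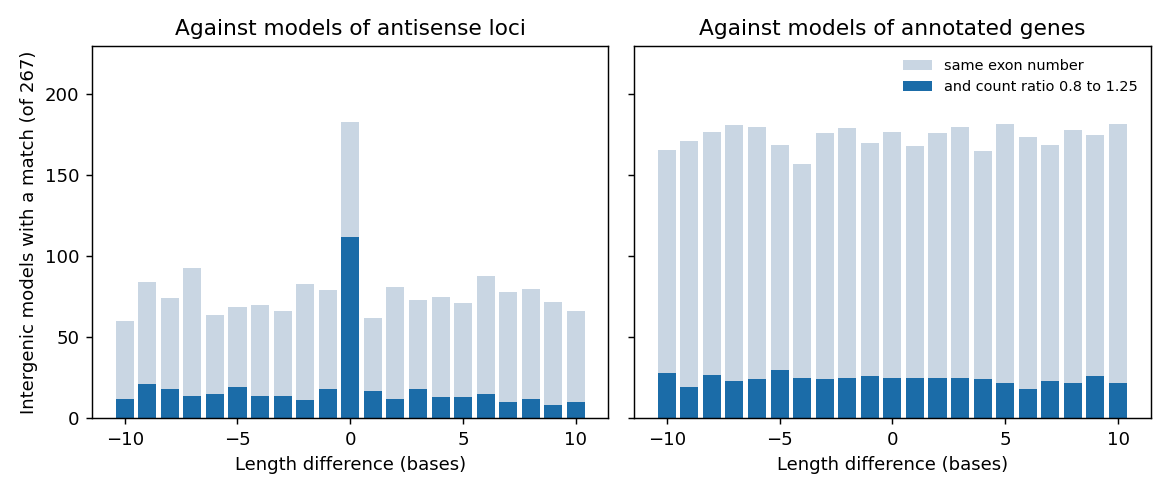
The number of intergenic models, of 267, with a match of equal exon number (light bars) and also of like count (dark bars) is plotted against the length difference in bases, for models of antisense loci (left) and of annotated genes (right). The left panel has a peak at 0 bases, of 183 light and 112 dark, and the right panel is flat.

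Coordinates of these loci were not used here, so whether a pair lies on opposite strands of the same place, and whether its reads come from 2 transcripts or from 1 read in both orientations, was not tested.

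Most pairs also differed between the groups in the same direction. In 71 of the 94 pairs with both loci tested the log2 fold changes had the same sign, and across the 94 pairs, which share their libraries, they had a Spearman rho of 0.53 and a Pearson r of 0.57. The median absolute difference within a pair was 0.15. Of the 94 pairs, the intergenic locus was called in 7, the antisense locus in 3, and both in 2. The share called among single genes was 13.0% over all genes and 13.3% over all antisense loci. Neither is a background for both members of a pair, for which none was computed.

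The pairs with both loci called were those of TALONG000065680 and TALONG000073339. The partner of TALONG000065680, TALONG000065682, had 305, 296 and 330 counts in siControl against 572, 549 and 460 in siDelta2-4, with a log2 fold change of 0.55 ± 0.09 (edgeR adjusted p = 0.000377). The partner of TALONG000073339, TALONG000073340, had 12, 9 and 6 counts in siControl against 25, 22 and 16 in siDelta2-4, with a log2 fold change of 1.00 ± 0.33 (edgeR adjusted p = 0.0615). In both partners each siDelta2-4 count lay above each siControl count. By contrast the partner of the single-exon locus TALONG000064596, with 15302 counts, had a log2 fold change of -0.14 ± 0.08 (edgeR adjusted p = 0.302), and that of TALONG000064038 one of -0.21 ± 0.32 (adjusted p = 0.749). The partners of TALONG000064286, TALONG000064818 and TALONG000065693 were not called either. Their log2 fold changes were 0.28, 0.32 and -0.11 (edgeR adjusted p = 0.597, 0.240 and 0.717).

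When the counts of each pair were summed before the test, an alternative added after seeing the data, 9 loci were called. Of these, 5 were among the 8 above, and no share over all genes in this refit is given here. By direction, 7 were higher and 2 lower. This balance is no support for a direction, since the minimum count was met in siDelta2-4 and low loci high in siControl alone could not enter. TALONG000065680 and TALONG000073339 then had log2 fold changes of 0.48 and 1.05 (edgeR adjusted p = 0.000545 and 0.00448), and TALONG000065710 was called at 0.78 (adjusted p = 0.0640). TALONG000062705 and TALONG000075149, with 9 and 4 siControl counts of their own, entered the test through the sums and were among the loci called higher. Their partners added 2, 4 and 2 counts and 5, 5 and 4 counts in siControl, against 11, 7 and 6 and 9, 8 and 9 in siDelta2-4. Both loci had passed the minimum count only through siDelta2-4, so their direction is not read as a result. How far that filter set it was not tested. TALONG000064038, TALONG000064286 and TALONG000065693 were no longer called (adjusted p from 0.108 to 0.121).

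The 48 loci without a mirrored antisense locus had a lower median count, 66.5 against 179, and 28 of them were tested. They included TALONG000065409 and TALONG000065410, the 12th and 13th largest loci, which matched each other instead. Each had 7 models, among them an 8-exon model of 1814 bases (1907 and 1402 counts) and a single-exon model of 718 bases (111 and 167 counts). TALONG000063340 and TALONG000063342 likewise shared a 4-exon model of 893 bases, with 64 and 96 counts. Both members of these pairs were classed Intergenic, and none of the 4 loci had an antisense match within 15 gene numbers.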

How the data were processed

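According to the labels and the study's methods, the authors made PCR-cDNA libraries and aligned their reads to GRCh38.p14 with minimap2 2.14. They then used SAMtools 1.13 for sorting, TranscriptClean for correction and TALON, with the Gencode 44 annotation, to assign reads to models. The deposited values were raw whole-number counts per transcript model. The authors kept unannotated models with a minimum of 5 counts in 3 libraries, which in this table means every siDelta2-4 library. Lengths (bases), exon numbers and novelty classes were used as deposited. Coordinates and sequences of the TALON loci were not used here.

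The groups came from the treatment in the labels. All 6 count columns were matched to a group by the siRNA in their names (0 columns were not used), and none could be tied to a single sample. Gene types were looked up in Gencode 44 by identifier, which matched all 8168 annotated genes.

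Counts were summed per gene and passed to edgeR 4.0.16 (R 4.3.3) with filterByExpr, TMM, quasi-likelihood model with group as its only term over all genes, two-sided p-values adjusted by Benjamini-Hochberg, and calls at an adjusted p under 0.1. Models were tested likewise, and usage with diffSpliceDGE. CPM used TMM-scaled totals. Log2 fold changes were those of the fitted model. A prior count of 2 was used only in the log2 CPM behind the length trend and the check of column numbers. SEs were obtained as the log2 fold change over the root of its F statistic. Values with 1 number per library were compared by exact two-sided permutation tests. Counting error alone limits a locus of few counts. Long PCR reads carried no molecular identifiers in these counts, so counts are of reads and not of molecules.

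Loci named were the 8 with the largest count, all called loci, the 3 with the most models, the 3 with the most exons and the 3 with the longest model (no locus lacked siControl counts, the remaining criterion). Any other locus was picked with its values in view. The loci and lists were chosen with earlier results of these data known. The alternatives were DESeq2 1.42.0, its size factors, library totals alone, TMM from annotated genes, no filter, a minimum of 10 counts in each library, calls at an adjusted p of 0.05, a loess trend on length removed (span 0.4), the minimum of 5 counts applied to both groups, a block on the column number and each library left out. The search for mirrored loci, its settings and the sum over mirrored loci were added after seeing the data. The scripts were tested on simulated data.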

Additional observations from a re-analysis of the deposited data

How the results depend on the processing

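Of the 124 tested loci, 8 were called in the analysis above. The count stayed within 1.5 times of this with DESeq2 size factors (10), library totals alone (6), TMM from annotated genes (9), at least 10 counts in every library (8), the length trend removed (12), the same minimum count in both groups (8, all of them shared) and mirrored loci summed (9). It was 2 with the DESeq2 test, 5 with no filter on low counts, 3 at an adjusted p under 0.05, and 3 to 24 with each library left out. Of 11 called models, 4 remained with DESeq2, and leaving out each library gave 2 to 23. Shares over all genes are not given here for these alternative fits, so their counts have no background to be read against. A paired reading was checked through the numbers in the column names. Same-numbered libraries did not deviate together (correlations of 0.039, -0.136 and -0.0843 across 3888 genes). No pairing was seen by this check, which cannot show that the samples were unpaired, and the labels do not say. With a block on that number 3 loci, 9 models and 0 loci by usage were called, against 8, 11 and 1 without it. Usage calls numbered 0 to 3 with each library left out. The difference in the intergenic share of counts turned from -0.0237 to 0.0207 percentage points without the 3 largest loci. The cause was not tested in any of these cases. Depth set the limit for the 34 loci that were too low to test, with at most 61 counts each over 6 libraries.

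The log2 fold changes that changed sign were all close to 0 or, for TALONG000065188, rested on few counts. TALONG000065238 (0.01 above) was at -0.020 with DESeq2 and with its size factors, -0.0073 with TMM from annotated genes, -0.0095 with no filter, -0.0064 with mirrored loci summed, -0.17 with the length trend removed, and -0.070, -0.037 and -0.063 without the siControl library of highest total, that of lowest total and the siDelta2-4 library of middle total. TALONG000064435 was at 0.021 with library totals alone. TALONG000063150 was at 0.022 with library totals alone and 0.044 with the length trend removed, where TALONG000064422 was at 0.013 and TALONG000063835 at 0.0074. TALONG000065188 was at -0.089 without the siControl library of highest total. Over all named loci and alternatives, 241 values kept direction and side of the threshold, 57 lost the call, 6 gained it and 15 changed sign. The number of loci with a mirrored antisense locus was 110, and 94, 125, 110 and 102 under the next gene number alone, any antisense locus, lengths within 3 bases and multi-exon models alone.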
